A study of Mus musculus with 3 samples.

Results

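The cytochrome P450 genes of the mouse were examined in chromatin accessibility data from whole brain. The set was every protein-coding gene whose symbol is Cyp followed by a family number, a subfamily letter and a member number, and it held 98 of the 21627 protein-coding genes in the gene table used. The genes carry 16 family numbers, and where windows of neighbours overlap they merge, which leaves 86 separate loci. All 3 libraries were made from nuclei of whole brain of C57BL6 mice by single-cell combinatorial indexed ATAC-seq. In this assay Tn5, a transposase, cuts open chromatin and leaves a barcoded adapter at each cut, and a further barcode is added by PCR, here in nanowells on a chip. The libraries were labelled sciATACv1, sciATACv2 and sciATACv3, called v1, v2 and v3 here, with 1 library per version, and the labels give no genotype or treatment that differs between them. The sources used here do not give the chemistry that separates the versions, nor the age, sex and number of the mice.

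Each library is described by a list of accessible regions (peaks) called by the authors, with positions only. Where 3 values follow each other they stand for v1, v2 and v3 in that order. The lists held 622754, 850991 and 512023 peaks, and the median peak was 500 bp wide in v1 and v2 and 726 bp in v3. Sequencing depth is unknown, and a gene without a peak is a gene with no peak past the authors' calling threshold. A peak list of a whole tissue cannot tell a region open in few nuclei from a region weakly open in many. The tissue label was checked on 31 marker genes of neurons, astrocytes, oligodendrocytes, microglia, endothelial cells, choroid plexus and ependyma. All 31 had peaks in each library, with a median of 4.68, 5.74 and 4.23 peaks per 10 kb. Over all protein-coding genes, 88.8%, 90.2% and 87.2% had a peak, at medians of 2.97, 4.26 and 2.66. The endothelial markers, at 1.97, 3.52 and 2.84, lay below the all-gene median in v1 and v2, and the other brain lists lay above it in each library. Of 7 hepatocyte markers, 6 had a peak in each library, a share near that of all genes. Their median was lower, at 0.777, 2.75 and 1.37 peaks per 10 kb. With 1 library per version there is no replicate spread, so no test between versions was possible, and the intervals given cover counting error only.

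Cytochrome P450 enzymes hold a haem group and insert an oxygen atom into fatty acids, sterols, steroids, vitamins and foreign compounds. Families with few members mostly act on the body's own sterols, steroid hormones, vitamin D and retinoic acid, while the large families 2, 3 and 4 hold the drug-metabolising and fatty acid enzymes that are best known from liver, gut and kidney. In brain the family is best known for the turnover of cholesterol, the making of neurosteroids and oestrogen, and the breakdown of retinoic acid.

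As a set the P450 genes carried few peaks. A gene window here is the span of the gene plus flanks of 5 kb. A peak lay in the window of 64, 65 and 56 of the 98 genes. Of all protein-coding genes, 88.8%, 90.2% and 87.2% had one. The median P450 window held 2, 2 and 1 peaks, against 8, 11 and 7 over all genes. Per 10 kb of window the medians were 0.641, 0.876 and 0.397, against 2.97, 4.26 and 2.66. In 27 P450 genes no library had a peak, a state shared by 8.06% of all protein-coding genes. Ranked by mean peaks among all genes of the same decile of window length, 86 P450 genes lay below their decile's median and 11 above it, where 48.4% and 48.2% of all genes do. Their median percentile was 11.3, and 38 of the 98 fell below percentile 5, as did 4.73% of all genes.

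Peaks at the ends and promoters of P450 genes were also few. Within 1 kb of either end of the gene span, 45 P450 genes had a peak in v1, 52 in v2 and 42 in v3, against 81.0%, 84.8% and 80.6% of all genes. An annotated promoter window, from 250 bp before to 50 bp after a start of transcription, was known for 76 of the 98 genes. Of these, 26 had a peak over a promoter in v1, 30 in v2 and 25 in v3, against 72.3%, 77.6% and 72.5% of the 17273 protein-coding genes with such a window. The promoter carried a peak in all 3 libraries in 22 of the 76 genes and in no library in 43. Over all genes those shares were 69.7% and 21.1%.

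The families were far from alike. The 21 genes outside families 2, 3 and 4 had a peak in the window in 19, 21 and 20 cases, at medians of 2.01, 4.21 and 1.89 peaks per 10 kb, and each of the 21 had a peak in at least 1 library. Over all genes, 88.8%, 90.2% and 87.2% had a window peak, a share near that of the 21, at medians of 2.97, 4.26 and 2.66. In family 2, with 48 genes, the window held a peak in 28, 28 and 22 genes, and 15 genes had none in any library. In family 3, with 9 genes, it did so in 3, 2 and 1 genes. In family 4, with 20 genes, the counts were 14, 14 and 13, and the 6 genes with no peak anywhere were all of subfamily Cyp4a.

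**Figure D1:**
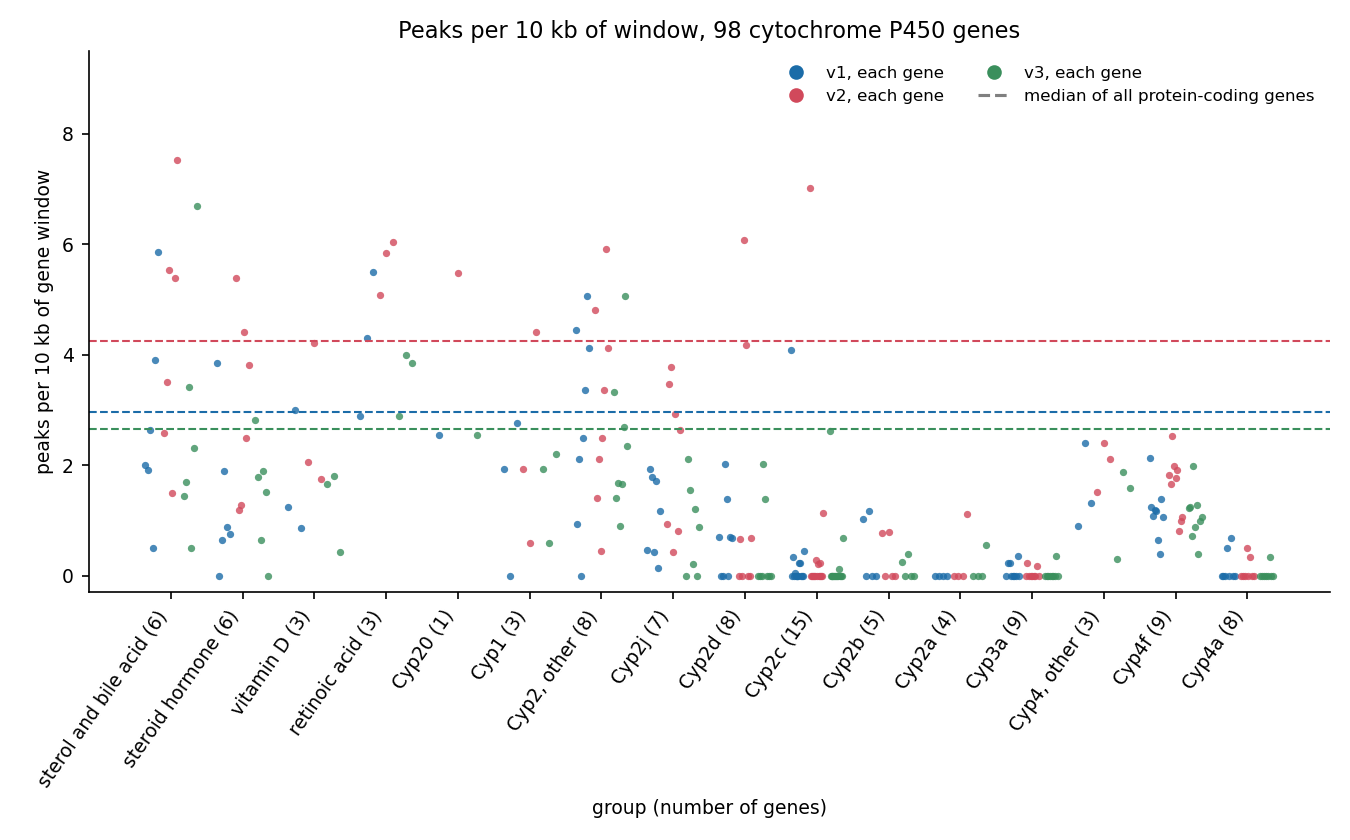
Peaks per 10 kb of gene window (vertical axis) for each of the 98 P450 genes in v1, v2 and v3, grouped by role or subfamily (horizontal axis, number of genes in brackets); each point is 1 gene in 1 library and the dashed lines are the medians of all protein-coding genes. The 3 retinoic acid genes lie at or above the line of their library except Cyp26a1 in v1, whereas all Cyp3a, Cyp2a, Cyp2b and Cyp4a genes lie below the 3 lines.

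All 6 genes of the sterol and bile acid enzymes had a peak in the window in every library, a share near that of all genes, and 5, 6 and 5 of them had a peak at an end. By mean peaks, 5 of the 6 lay below the median of their length decile, at a median percentile of 32.0. Cyp46a1 hydroxylates cholesterol in neurons to the form that leaves the brain. Its gene, at chr12:108334268-108362234, held 10, 21 and 13 peaks, or 2.63, 5.53 and 3.42 per 10 kb. Of 17 merged regions in its window, 9 were present in all 3 libraries and 4 in v2 alone. The widest shared region, chr12:108360600-108365023, covered 4424 bp at the far end of the gene, and another lay over the start. The promoter is shown because it carried a peak in each library and had the most CpG dinucleotides of any P450 promoter, 31 in 300 bases. The promoter of Cyp8b1 is set beside it because this gene had the most peaks per 10 kb of all P450 genes in each library and few CpG, 5 in its promoter. Both sequences are from RefSeq on GRCm38.p6, with every CG and every TATAAA, in either orientation, in capitals. Cyp46a1 spans chr12:108334066-108334365 on the plus strand and Cyp8b1 chr9:121916256-121916555 on the minus strand.
Cyp46a1: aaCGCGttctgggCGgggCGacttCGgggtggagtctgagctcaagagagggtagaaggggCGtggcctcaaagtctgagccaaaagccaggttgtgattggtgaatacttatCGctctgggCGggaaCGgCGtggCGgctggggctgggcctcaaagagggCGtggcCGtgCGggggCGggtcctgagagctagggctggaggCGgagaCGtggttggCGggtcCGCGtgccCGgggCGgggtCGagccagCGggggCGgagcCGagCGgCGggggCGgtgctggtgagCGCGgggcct
Cyp8b1: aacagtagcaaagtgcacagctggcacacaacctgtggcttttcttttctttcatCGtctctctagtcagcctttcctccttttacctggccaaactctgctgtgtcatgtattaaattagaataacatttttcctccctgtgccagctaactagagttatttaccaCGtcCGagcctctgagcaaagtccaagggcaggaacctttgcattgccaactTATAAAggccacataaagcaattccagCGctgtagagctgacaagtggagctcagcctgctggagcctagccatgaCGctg

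Cyp7b1, which removes oxysterols and neurosteroids by hydroxylation, held the most peaks of any P450 gene, 71, 98 and 42. Its window, at 181947 bp, is also long, and per 10 kb it held 3.90, 5.39 and 2.31. The number of regions present in all 3 libraries was 28 of 89, and 1 of them, chr3:18079564-18084688, was the widest shared region of any P450 window at 5125 bp. Cyp39a1, which acts on the product of Cyp46a1, held 18, 33 and 16 peaks, with 11 of 29 regions shared by the 3 libraries. The gene Slc25a27 also reaches into that window.

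Cyp27a1, the mitochondrial sterol hydroxylase of bile acid and oxysterol synthesis, held 7, 9 and 5 peaks and had a peak over its promoter in each library, in a window that takes in part of Prkag3. Cyp8b1, a hydroxylase of bile acid synthesis, has a short window of 11950 bp that held 7, 9 and 8 peaks, 5.86, 7.53 and 6.69 per 10 kb. Its window overlaps the span of Ackr2, a chemokine scavenging receptor gene, so the peaks cannot be assigned to either gene. Cyp7a1, the rate-limiting enzyme of the classical bile acid pathway, held 1, 3 and 1 peaks, the lowest of the 6 genes, and its single shared region of 738 bp lay in the flank.

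Among the steroid hormone enzymes the values were uneven. Of 6 genes, 5, 6 and 5 had a peak, and 3, 6 and 4 had a peak at an end. Cyp11a1, which cleaves the side chain of cholesterol as the entry step of steroid synthesis, held 15, 21 and 11 peaks, 3.85, 5.38 and 2.82 per 10 kb, with 7 of 19 regions shared by all 3 libraries. RefSeq gives it 2 starts. The start at the gene's outer end had a peak in each library, the inner start at chr9:58014702-58015001 in v2 alone, and Ccdc33 also reaches into the window. The outer promoter, chr9:57997774-57998073 on the plus strand, is shown because Cyp11a1 was the steroid gene with most peaks per 10 kb in each library. It holds 7 CG, in capitals.
Cyp11a1: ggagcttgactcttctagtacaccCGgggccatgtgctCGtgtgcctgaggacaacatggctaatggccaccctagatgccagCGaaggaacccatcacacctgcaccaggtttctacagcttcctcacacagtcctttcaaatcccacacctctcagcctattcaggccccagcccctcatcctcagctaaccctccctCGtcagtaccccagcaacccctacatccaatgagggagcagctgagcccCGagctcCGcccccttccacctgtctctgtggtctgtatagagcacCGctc

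Cyp19a1, the aromatase that makes oestrogens from androgens, held 10, 28 and 17 peaks. Its window of 112228 bp is long, so per 10 kb these were 0.891, 2.49 and 1.51. RefSeq gives 3 starts, and a peak covered the promoter at chr9:54228865-54229164 in v3 and no other promoter in any library. The number of regions shared by all 3 libraries was 7 of 29. Cyp17a1, which makes androgen precursors, held 3, 7 and 3 peaks, with 2 of 6 regions shared.

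The windows of Cyp11b1, Cyp11b2 and Cyp21a1, enzymes of adrenal steroid synthesis, had no region shared by the 3 libraries. Cyp11b1, the last enzyme of corticosterone synthesis, had 0, 2 and 3 peaks, each in a region of its own. Cyp11b2, which makes aldosterone, had 1, 2 and 1. The windows of this pair overlap each other and the gene Gml2. Cyp21a1, the steroid hydroxylase that acts before them, had 1, 5 and 0 peaks, and its 6 regions were each found in 1 library.

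The 3 vitamin D enzymes each had a peak at an end in every library, as did most genes, and 2 of the 3 lay below the median of their length decile. Cyp27b1, which makes the active hormone, held 5, 7 and 3 peaks. A shared region of 3294 bp, chr10:127047550-127050843, lay over its start, in a window that also takes in Mettl1 and Marchf9. Cyp24a1, which inactivates the hormone, held 3, 5 and 4 peaks. Its widest shared region, chr2:170494675-170498338, crossed the end of the gene span with the higher coordinate, beside Pfdn4. The gene had no promoter entry, so the place of its start is not given here. Cyp2r1, which hydroxylates the vitamin at an earlier step, held 2, 4 and 1 peaks, and 1 region, over its CpG-rich promoter, was common to the 3 libraries.

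The 3 retinoic acid hydroxylases of family 26, which clear retinoic acid from developing and adult tissue, had the highest median of the role groups, 4.31, 5.85 and 3.84 peaks per 10 kb. All 3 lay above the median of their window-length decile, at percentiles 74.4 (Cyp26a1), 87.9 (Cyp26b1) and 86.9 (Cyp26c1). Cyp26b1 held 14, 19 and 13 peaks, 4.31, 5.85 and 4.0 per 10 kb, with 9 of 19 regions shared. Its promoter had a peak in v1 and v2 and not in v3. Cyp26a1 held 4, 7 and 4 peaks and Cyp26c1 10, 11 and 7. These neighbours on chromosome 19 share the region chr19:37696200-37699421, which lies over the start of Cyp26a1, and Exoc6 reaches into the window of Cyp26c1. The Cyp26a1 promoter, chr19:37697558-37697857 on the plus strand, is shown because it is both rich in CG (26) and holds TATAAA, in capitals. The motif lies shortly after the annotated start, not before it.
Cyp26a1: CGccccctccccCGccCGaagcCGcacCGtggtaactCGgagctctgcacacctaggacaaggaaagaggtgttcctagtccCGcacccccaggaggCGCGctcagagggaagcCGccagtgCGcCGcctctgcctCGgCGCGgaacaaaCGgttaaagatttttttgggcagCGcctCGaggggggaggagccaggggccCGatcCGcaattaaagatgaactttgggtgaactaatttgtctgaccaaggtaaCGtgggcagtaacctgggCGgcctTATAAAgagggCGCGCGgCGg

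Family 1 and Cyp20a1 lay below the medians of their length deciles, at percentiles from 12.9 (Cyp1a2) to 41.9 (Cyp1b1). Cyp1b1, which oxidises oestrogens and aromatic hydrocarbons, held 5, 8 and 4 peaks, and a shared region of 3311 bp lay over its CpG-rich promoter. Cyp1a1, the classical target of the aryl hydrocarbon receptor, held 5 peaks in each library, with a shared region of 3650 bp over its start. Its neighbour Cyp1a2, which metabolises caffeine, held 0, 1 and 1, with no promoter peak. Cyp20a1, an orphan enzyme with no settled substrate, held 14, 30 and 14 peaks, with 9 of 30 regions shared, in a window that it shares with Nbeal1.

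Family 2 was split by subfamily. In Cyp2c, Cyp2b and Cyp2a, the drug and steroid hydroxylases of liver, none of the 22 genes with a known promoter had a peak over it in any library. The 15 Cyp2c genes had a window peak in 6, 5 and 3 cases, the 5 Cyp2b genes in 2, 2 and 2, and the 4 Cyp2a genes in 0, 1 and 1. The 8 Cyp2d genes had a peak in 5, 4 and 2. By contrast, the 7 Cyp2j genes, epoxygenases of arachidonic acid, had a peak in 7, 7 and 5 and a promoter peak in 5, 6 and 4. Of the 9 genes in other subfamilies, 8, 9 and 9 had a window peak and 7, 7 and 7 a peak at an end.

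The genes with the most peaks in family 2 were Cyp2c23, Cyp2j12 and Cyp2u1. Cyp2c23, an epoxygenase that lies far from the other Cyp2c genes on chromosome 19, held 14, 24 and 9 peaks, 4.09, 7.01 and 2.63 per 10 kb. The other 14 Cyp2c genes held at most 2, 5 and 3. Cyp2j12 held 10, 18 and 11. Cyp2u1, a fatty acid hydroxylase, held 12, 14 and 12, with 7 of 10 regions in all 3 libraries and percentile 93.6 of its length decile. Cyp2d22 held 4, 12 and 4 peaks and Cyp2d26 2, 6 and 2, and the other 6 Cyp2d genes held at most 1 in each library. Cyp2e1, the ethanol-oxidising enzyme, held 2, 3 and 3 and had no promoter peak.

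The Cyp2j genes differed along their cluster. Cyp2j6 held 10, 17 and 7 peaks, Cyp2j13 held 8, 17 and 7 and Cyp2j9 held 4, 9 and 3, and each of the 3 had a promoter peak in every library. Cyp2j11 held 3, 6 and 0, Cyp2j8 1, 6 and 0 and Cyp2j5 2, 2 and 1, and none of these had a region in all 3 libraries. In the remaining subfamilies Cyp2ab1 held 12, 13 and 9 peaks, with 7 of 14 regions shared. Cyp2s1, with 6, 6 and 4, and Cyp2t4, with 5, 5 and 4, had a promoter peak in each library. Cyp2f2, also with 5, 5 and 4, had none, and Cyp2g1 held 0, 1 and 2. The Cyp2b and Cyp2a genes with any peak were Cyp2b10 (4, 3 and 1), Cyp2b19 (3, 2 and 1) and Cyp2a5 (0, 2 and 1).

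**Figure D2:**
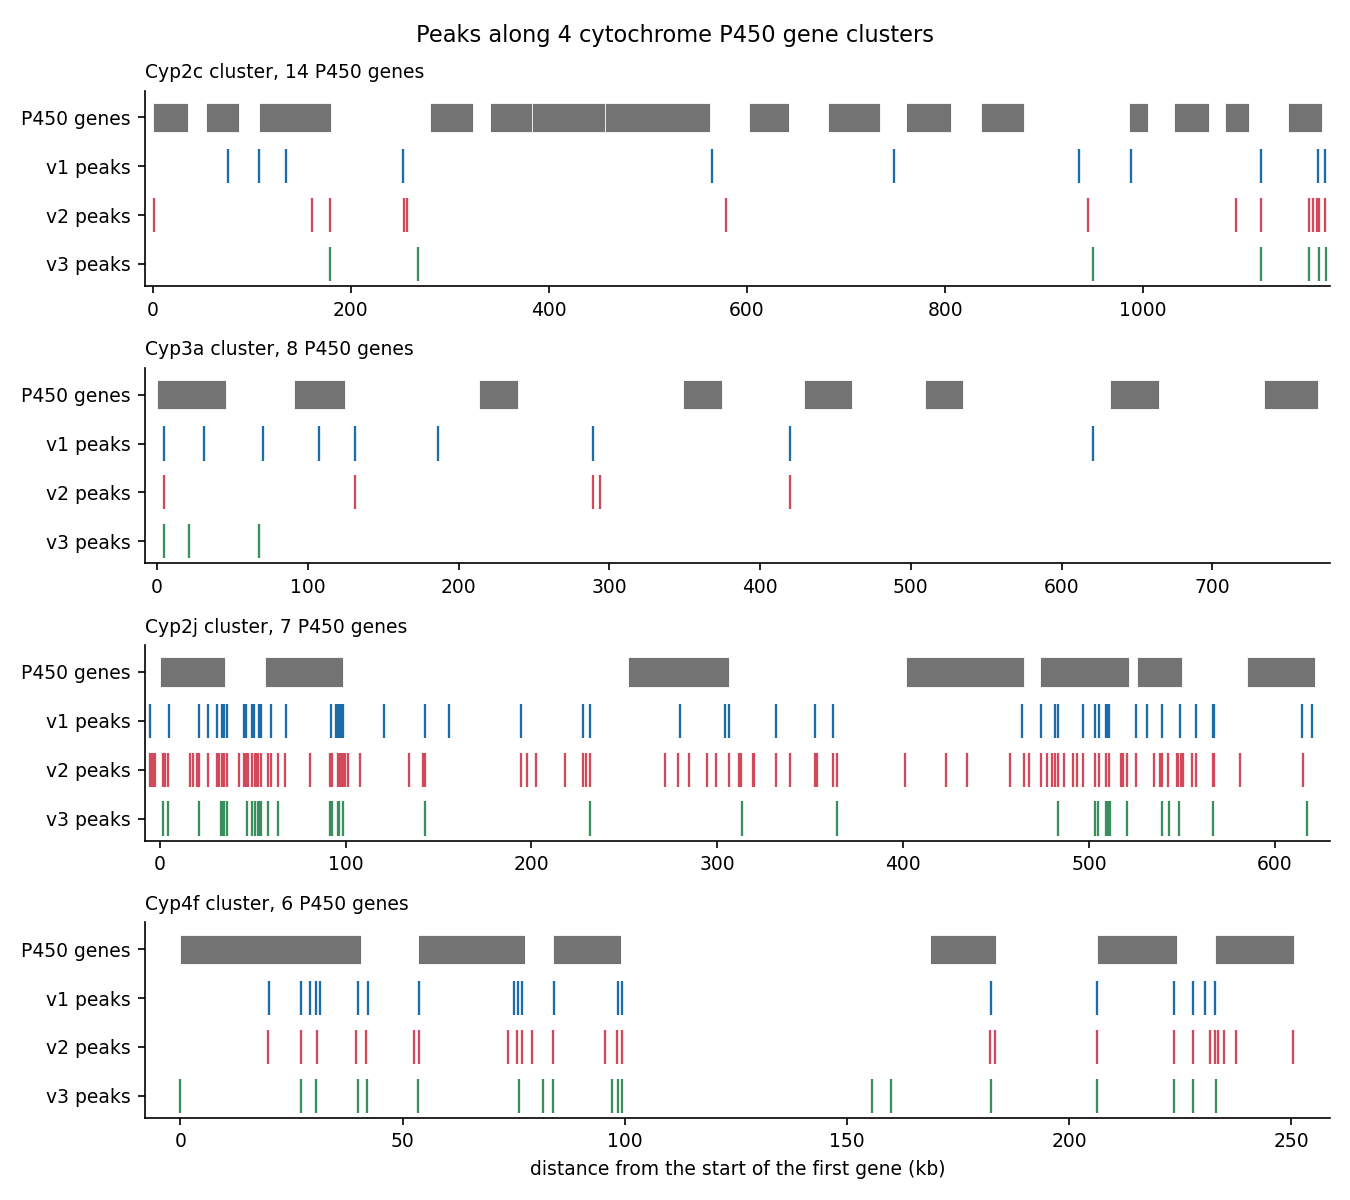
Position of P450 genes (grey bars) and of peak centres (ticks) in v1, v2 and v3 along 4 clusters, with distance in kb from the start of the first gene on the horizontal axis; each peak is drawn once, from 5 kb before to 5 kb after the cluster. The Cyp2c cluster holds 11, 14 and 7 peaks in v1, v2 and v3 and the Cyp2j cluster 53, 105 and 37.

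Clusters of neighbouring genes made the contrast plain. Within 8 clusters of 3 or more P450 genes less than 200 kb apart lay 66 genes, among them all 27 with no peak. The other 32 genes had a peak in 30, 32 and 30 cases, at medians of 2.08, 3.67 and 1.84 peaks per 10 kb, against 0.0896, 0.0896 and 0 in the clusters. Over all genes, 88.8%, 90.2% and 87.2% had a peak, a share near that of these 32. The all-gene medians, 2.97, 4.26 and 2.66 per 10 kb, lay above theirs. The Cyp2c cluster of 14 genes, chr19:39006940-40187286, held 11, 14 and 7 peaks over its whole length with flanks, or 9.24, 11.8 and 5.88 per Mb. The averages over the chromosomes were 237, 323 and 195 per Mb. The Cyp3a cluster of 8 genes, chr5:145345149-146114978, held 9, 5 and 3 peaks, 11.5, 6.41 and 3.85 per Mb. The Cyp2j cluster of 7 genes, chr4:96042660-96664171, held 53, 105 and 37 peaks, 83.9, 166 and 58.6 per Mb. The Cyp4f cluster of 6 genes, chr17:32452697-32703352, had 76.7, 99.7 and 72.9 per Mb, below the Cyp2j cluster in v1 and v2 and above it in v3, and the Cyp4a genes with Cyp4x1 and Cyp4b1, chr4:115106323-115647721, had 27.2, 30.8 and 21.8. Both clusters of Cyp2a and Cyp2b genes on chromosome 7 lay in the same low range, at 24.9, 24.9 and 19.1 per Mb and at 41.7, 45.7 and 37.7. The Cyp2d cluster of 8 genes had 27.7, 57.6 and 16.1.

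The clusters differed in how many of the regions in their gene windows were found in all 3 libraries, which 39% of regions over the genome were. In the Cyp2c cluster this was 2 of 14 regions, in the Cyp3a cluster 1 of 4, in the Cyp2d cluster, chr15:82370527-82794452, 3 of 20 and in the Cyp2j cluster 18 of 77. From Cyp4x1 to Cyp4b1 it was 5 of 15, in the clusters on chromosome 7 5 of 11 (Cyp2s1 to Cyp2a4) and 7 of 19 (Cyp2b23 to Cyp2t4), and in the Cyp4f cluster 14 of 28. Both shared regions in the Cyp2c gene windows lay at Cyp2c70, at the cluster's edge, and 1 of them, chr19:40183498-40184737, was inside the gene. The shared region of the Cyp3a cluster was chr5:145349622-145350140 in Cyp3a57, also at the edge. Those in the Cyp2d gene windows lay in Cyp2d22 and Cyp2d26, the genes at the cluster's 2 edges. Between gene windows, which these counts leave out, all 3 libraries also had peaks at the same place in several clusters. Examples lay near 1119 kb from the start of the Cyp2c cluster and near 47 kb from that of the Cyp2d cluster. Others lay near 175 kb from the start of the cluster from Cyp4x1 to Cyp4b1 and near 53 kb from that of the cluster from Cyp2s1 to Cyp2a4.

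Family 3 holds the Cyp3a enzymes, the main drug oxidases of liver and gut. No gene of the 9 had a peak at an end or over a promoter in any library, and all 9 lay below percentile 5 of their length decile. Cyp3a57 held 2, 1 and 2 peaks, Cyp3a13 held 1, 1 and 0, and Cyp3a16 held 1, 0 and 0. The other 6 genes, Cyp3a11, Cyp3a25, Cyp3a41a, Cyp3a41b, Cyp3a44 and Cyp3a59, held none. From a Cyp3a start of transcription to the closest peak the median distance was 43.3 kb in v1, 46.9 kb in v2 and 163 kb in v3. The promoter of Cyp3a41a, chr5:145720087-145720386 on the minus strand, is shown as an example, with its 2 CG and its TATAAA in capitals. Over the 300 bases it is 97.3% identical to that of Cyp3a41b, its neighbour.
Cyp3a41a: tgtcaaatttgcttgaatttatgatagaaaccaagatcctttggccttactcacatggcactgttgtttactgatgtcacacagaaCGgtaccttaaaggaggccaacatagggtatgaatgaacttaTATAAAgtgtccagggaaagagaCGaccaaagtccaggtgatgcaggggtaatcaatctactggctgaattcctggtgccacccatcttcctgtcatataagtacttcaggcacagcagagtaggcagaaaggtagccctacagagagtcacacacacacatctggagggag

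Family 4 separated into Cyp4f and Cyp4a. All 9 Cyp4f genes, omega hydroxylases of leukotrienes and long-chain fatty acids, had a peak in the window and at an end in every library. Of 8 with a known promoter, 5, 6 and 6 had a promoter peak. Their windows were still poor in peaks, with medians of 1.18, 1.77 and 1.07 per 10 kb and none above its decile's median. Cyp4f17 held 4, 6 and 3 peaks, Cyp4f14 3, 4 and 3 and Cyp4f40 3, 3 and 3, and the 3 regions of Cyp4f40 were each present in all 3 libraries. Of 8 Cyp4a genes, the fatty acid hydroxylases that PPAR-alpha induces in liver, 2, 2 and 1 had a peak. These were Cyp4a14, with 1, 1 and 0 peaks, and Cyp4a30b, with 2, 1 and 1.

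The most peaks in the family were at Cyp4v3 and Cyp4x1, followed by Cyp4f13 and Cyp4f39 with an equal mean. Cyp4v3, a fatty acid hydroxylase with a CpG-rich promoter, held 9, 9 and 7 peaks, in a window shared with Fam149a. Cyp4x1, a P450 known from brain, held 5, 8 and 6. It lies at the edge of the Cyp4a cluster, and its widest shared region, chr4:115101353-115104719, was in the flank. Cyp4b1, at the other edge of that cluster, held 3, 5 and 1, with a promoter peak in v2. Cyp4f13 held 7, 6 and 4 and Cyp4f39 7, 5 and 5.

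Cyp4f16 and Cyp4f37 are neighbouring copies that differed in their peaks, and their promoters are printed for that reason. The annotated starts are shifted against each other, so the 300-base windows share a stretch of 235 bases, offset by 65 bases. Over that stretch the copies had 8 differences, gaps counted, and were 96.6% identical, and counted over the whole 300 bases the identity was 76.0%. The promoter of Cyp4f16, chr17:32536307-32536606, had a peak in all 3 libraries, and its window held 3, 5 and 5 peaks. The promoter of Cyp4f37, chr17:32621069-32621368, had none, and its window held 1, 2 and 1, of which the shared region, chr17:32634008-32635660, lay near the far end of the gene. Both are on the plus strand, with CG and TATAAA, where present, in capitals.
Cyp4f16: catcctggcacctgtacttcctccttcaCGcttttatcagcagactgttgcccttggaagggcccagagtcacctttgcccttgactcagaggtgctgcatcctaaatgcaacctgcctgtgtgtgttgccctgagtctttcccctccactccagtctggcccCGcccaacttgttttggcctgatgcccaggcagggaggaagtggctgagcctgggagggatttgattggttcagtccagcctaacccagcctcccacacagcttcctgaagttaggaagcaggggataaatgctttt
Cyp4f37: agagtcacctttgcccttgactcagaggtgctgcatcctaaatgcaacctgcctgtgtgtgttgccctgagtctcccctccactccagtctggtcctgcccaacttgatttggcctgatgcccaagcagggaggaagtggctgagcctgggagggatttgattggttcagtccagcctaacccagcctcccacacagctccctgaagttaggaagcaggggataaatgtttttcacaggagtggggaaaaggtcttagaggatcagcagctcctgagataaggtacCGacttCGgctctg

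**Figure D3:**
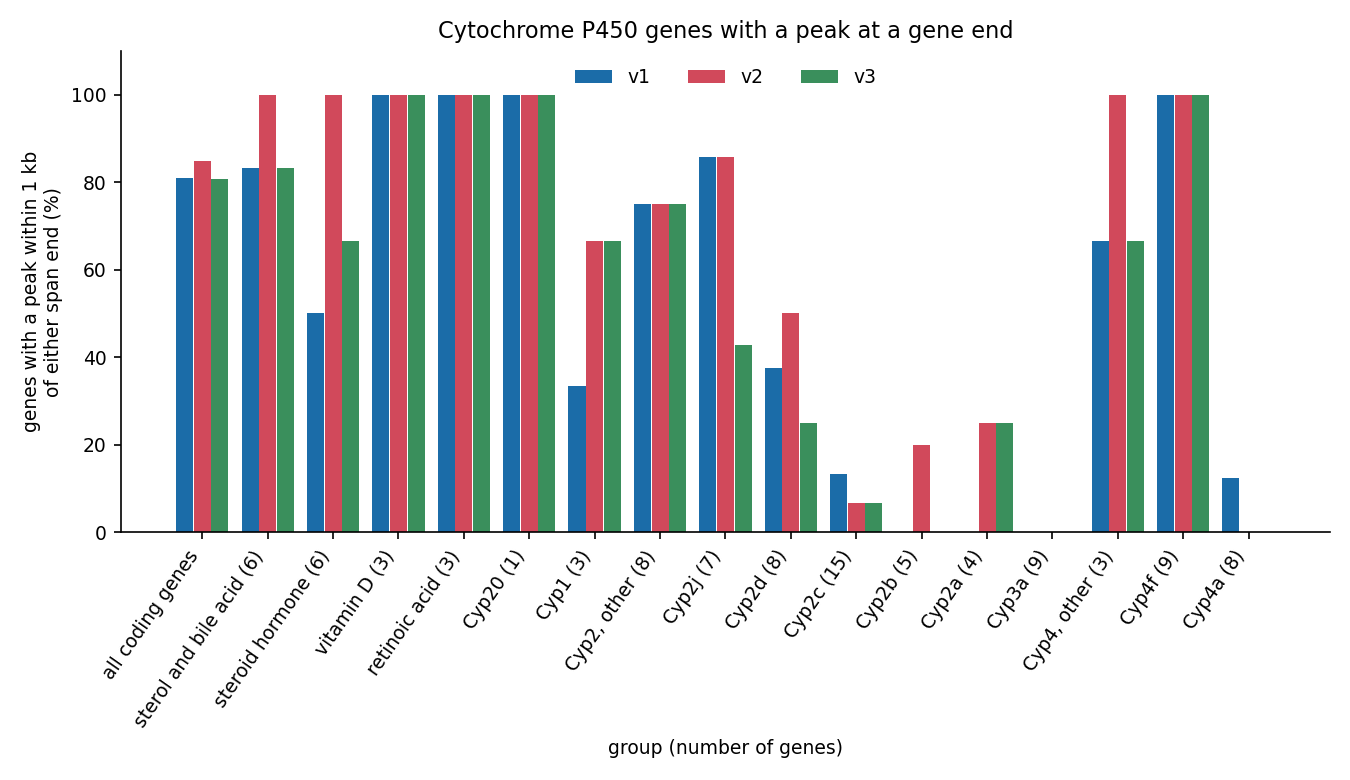
Percent of genes with a peak within 1 kb of either end of the gene span (vertical axis, from 0) in v1, v2 and v3, for all protein-coding genes and for each P450 group (number of genes in brackets). The bars reach 100% in each library for Cyp4f, Cyp20a1, the vitamin D and the retinoic acid genes, and no Cyp3a gene has a bar.

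The 27 genes with no peak in any library are named here in full. In family 2 they were Cyp2a4, Cyp2a12, Cyp2a22, Cyp2b9, Cyp2b13, Cyp2b23, Cyp2c29, Cyp2c38, Cyp2c40, Cyp2c54, Cyp2c67, Cyp2c68, Cyp2c69, Cyp2d12 and Cyp2d34. In family 3 they were the 6 genes named above. In family 4 they were Cyp4a10, Cyp4a12a, Cyp4a12b, Cyp4a29, Cyp4a31 and Cyp4a32. Of the 27, 10 had a promoter at least 90% identical to another P450 promoter over the whole window, 8 one from 70% to 90%, 2 one below 70%, and 7 had no promoter entry. Over the stretch that both windows share, these counts were 12, 6 and 2. Reads that map equally well to several places can be lost in processing. The sources used here do not say how such reads were handled.

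P450 genes whose promoters have close copies carried few promoter peaks. Identity was first counted over the whole 300-base window, which lowers it where annotated starts are shifted. The closest other P450 promoter was less than 70% identical for 43 genes, of which 25, 29 and 24 had a promoter peak. It was 70% to 90% identical for 20 genes, of which 1 had a promoter peak in each library, Cyp4f16. It was at least 90% identical for 13 genes, and none of them had a promoter peak. Of these 13, a peak lay anywhere in the window of 2 in each library and 10 had none in any. Counted instead over a shared stretch of at least 150 bases, a measure added after seeing the data, identity was at least 90% for 17 genes. Of these 17, 1 had a promoter peak in each library, Cyp4f16, whose copy Cyp4f37 had none, and 12 had no peak in any library. It was 70% to 90% for 19 genes, of which 1, 2 and 0 had a promoter peak, at Cyp2j11 and Cyp2j8, and less than 70% for 40 genes, of which 24, 27 and 24 had one. Across the 76 genes the Spearman correlation of identity with mean peaks per 10 kb was -0.717 over the whole window and -0.70 over the shared stretch, as a description of genes that share libraries and clusters. The part of read mapping in this was not tested.

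The closest pair over the whole window was Cyp2b13 and Cyp2b9, at 99.3% identity over 300 bases, and neither had a peak in any library. The promoters are printed to show how alike such copies are, Cyp2b13 at chr7:26061245-26061544 and Cyp2b9 at chr7:26173159-26173458, both on the plus strand, with CG in capitals.
Cyp2b13: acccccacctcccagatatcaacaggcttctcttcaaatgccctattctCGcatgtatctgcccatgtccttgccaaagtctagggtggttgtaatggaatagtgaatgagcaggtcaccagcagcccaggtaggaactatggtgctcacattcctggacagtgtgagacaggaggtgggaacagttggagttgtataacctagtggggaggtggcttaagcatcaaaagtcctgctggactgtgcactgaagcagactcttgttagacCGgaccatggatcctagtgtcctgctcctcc
Cyp2b9: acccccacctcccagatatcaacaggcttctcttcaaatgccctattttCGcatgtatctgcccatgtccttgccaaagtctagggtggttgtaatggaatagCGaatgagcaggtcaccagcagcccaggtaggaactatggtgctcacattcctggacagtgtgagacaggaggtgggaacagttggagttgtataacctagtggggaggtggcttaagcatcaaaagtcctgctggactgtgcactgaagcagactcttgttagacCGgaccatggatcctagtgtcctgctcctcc

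P450 promoters were poor in CpG. A promoter was called CpG-rich when its observed to expected CpG ratio was at least 0.6 and its GC content at least 50%. Of 76 genes, 6 had such a promoter, Cyp1b1, Cyp20a1, Cyp26a1, Cyp2r1, Cyp46a1 and Cyp4v3, against 48.9% of all genes. All 6 had a promoter peak in all 3 libraries, and of all CpG-rich promoters 98.4%, 99.2% and 98.5% had a peak. Of the 70 CpG-poor P450 genes, 20, 24 and 19 had a promoter peak, or 28.6%, 34.3% and 27.1%, against 47.2%, 56.8% and 47.5% of all genes with a CpG-poor promoter. Among the 37 of them whose closest P450 promoter was less than 70% identical, 19, 23 and 18 had a promoter peak, or 51.4%, 62.2% and 48.6%, a share near that background. By the shared stretch these were 18, 21 and 18 of 34 genes. The background of all CpG-poor promoters was not limited by identity to other promoters, so the sets are not alike in this. The Spearman correlation of CpG count with mean peaks per 10 kb was 0.606 over 76 genes, again as a description.

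**Figure D4:**
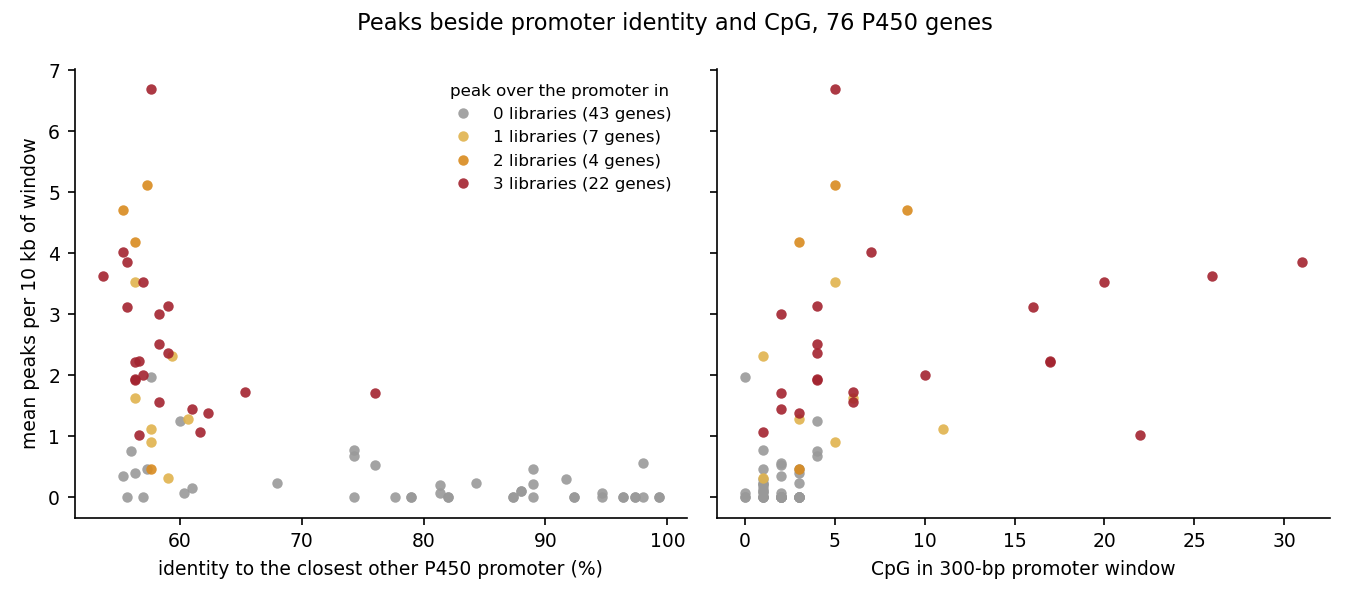
Mean peaks per 10 kb of window over v1, v2 and v3 (vertical axis) against the identity of a gene's promoter to the closest other P450 promoter (left, counted over the whole 300-base window) and against the number of CpG in its 300-bp promoter window (right), 1 point for each of 76 genes, coloured by the number of libraries with a peak over the promoter. The 22 genes with a promoter peak in all 3 libraries include Cyp4f16, at 76.0% identity by this measure and 96.6% over the stretch it shares with Cyp4f37, and otherwise lie below 70%.

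Short sequence motifs were counted in the 86 P450 promoter windows on both strands. The TATA box motif TATAAA occurred in 39.5% of them and in 12.7% of the 21044 promoter windows of protein-coding genes. It stood in 28 of the 47 P450 windows with no peak in any library and in 3 of the 27 with a peak in each. The GC box GGGCGG, which contains a CpG, occurred in 20.9% of P450 windows against 46.7% of all, in 14 of those 27 and 1 of those 47. The core GCGTG, bound by the aryl hydrocarbon receptor, occurred in 19.8% against 38.8%, including Cyp1a1 and Cyp1b1. The nuclear receptor half-site AGGTCA occurred in 25.6% against 14.6%, in 20 of the 47 windows with no peak and 1 of the 27 with a peak in each. The CCAAT box occurred in 45.3% against 38.5%. Close copies share these letters, so the windows are not independent. Motifs in the promoters of all genes were not split by peaks. The splits by peaks therefore say nothing particular about P450 genes.

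Around the starts of transcription the families again parted. Within 500 bp of a start, peaks covered 14.3%, 19.8% and 15.2% of the bases for the 53 starts of families 2 and 3. For the 17 starts of family 4 they covered 48.5%, 58.3% and 52.8%, and for the 16 starts of the other families 55.3%, 61.4% and 54.2%. Over all 21044 starts the values were 64.5%, 69.7% and 68.2%. Between the 47 P450 starts whose promoter had no peak and the closest peak lay a median of 26.5, 38.2 and 37.5 kb.

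**Figure D5:**
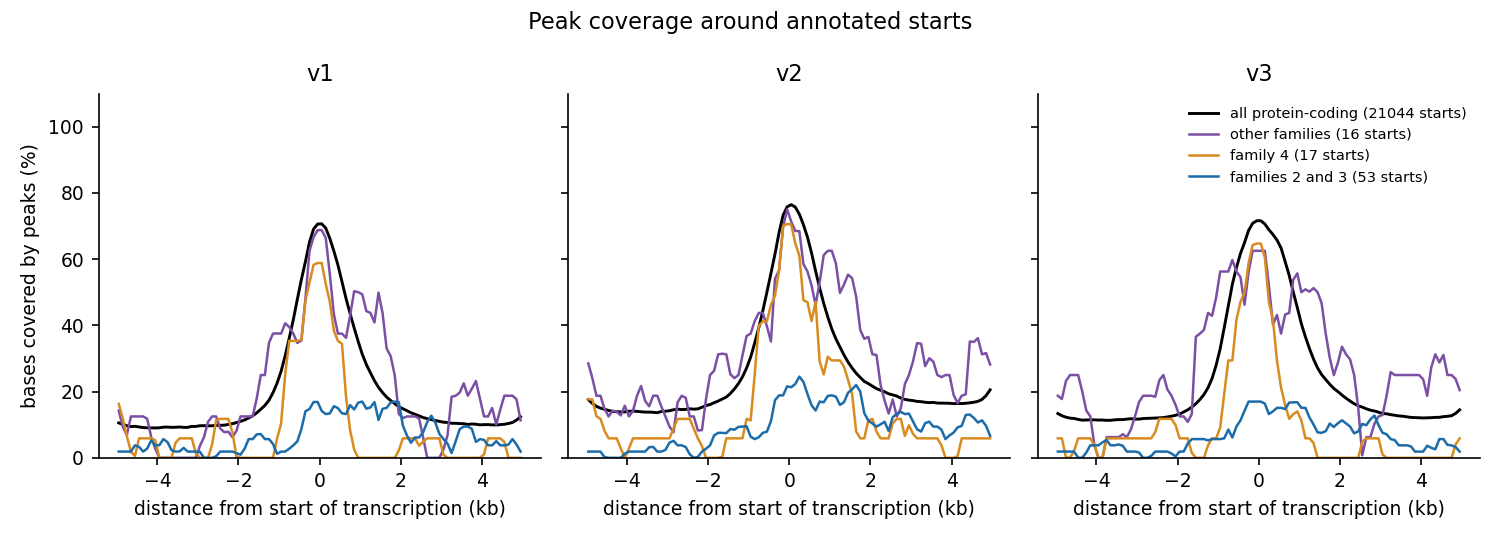
Percent of bases covered by peaks (vertical axis) in bins of 100 bp from 5 kb before to 5 kb after annotated starts of transcription, in v1, v2 and v3, for the starts of all protein-coding genes and of 3 sets of P450 families. The line of families 2 and 3 stays below 25% in each library, and the lines of family 4 and of the other families rise at the start.

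Between versions the share of peaks in P450 windows was close to even. Counted once each, 382 peaks of v1, 586 of v2 and 311 of v3 lay in P450 windows. As a share of all peaks, v2 held 1.12 times the share of v1 (95% interval 0.985 to 1.28), v3 held 0.990 times that of v1 (0.850 to 1.15) and v3 held 0.882 times that of v2 (0.766 to 1.01). Each interval includes 1. Over the 98 genes the median log2 ratio of these shares was 0 for each pair of versions, a value that genes with no peak in either library also take.

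No single P450 gene with 10 or more peaks in total differed between versions beyond counting error. Of these 39 genes, 4 had a share at least 2 times as high in v2 as in v1, namely Cyp2d22, Cyp19a1, Cyp4f18 and Cyp2d26, where 3.88% of all such genes did, and 0 had a share at most 0.5 times as high, where 1.21% did. From v1 to v3, 3 did, namely Cyp4f18, Cyp19a1 and Cyp4f16, against 5.69%, and 0 fell to at most 0.5 times, against 2.87%. From v2 to v3, 1 gene, Cyp4f15, had a share at most 0.5 times as high, against 3.76%, and 0 rose to at least 2 times, against 3.1%. The ratio for Cyp19a1 was 2.05 (0.966 to 4.73) in v2 over v1 and 2.07 (0.894 to 5.05) in v3 over v1. For Cyp2d22 in v2 over v1 it was 2.20 (0.665 to 9.34), and for Cyp2d26 and Cyp4f18, with fewer peaks, 2.20 (0.393 to 22.2) each. At the low end, Cyp4f39 had 0.523 (0.131 to 1.91) in v2 over v1 and Cyp4f13 0.627 (0.174 to 2.18). Cyp2w1 had 0.695 (0.149 to 2.73) in v3 over v1, as did Cyp4f13, and Cyp4f18 had 2.43 (0.349 to 26.9). In v3 over v2, Cyp4f15 had 0.475 (0.0481 to 2.49), Cyp2d22 had 0.554 (0.130 to 1.83) and Cyp4f16 and Cyp4f39 each had 1.66 (0.383 to 7.22). None of these intervals excludes 1.

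Regions in P450 windows were also counted by the libraries that held them. Of 586 merged regions, 199 (34%) had a peak in all 3 libraries and 279 (47.6%) in a single library, against 39% and 37.8% of 825954 regions overall. Of the 279, 203 were found in v2, the longest list, 39 in v1 and 37 in v3. These are 72.8%, 14.0% and 13.3%, near the 69.1%, 12.9% and 17.9% of all single-library regions. At least 1 region shared by all 3 libraries lay in the window of 49 of the 98 genes, against 84.9% of all genes.

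The partners and regulators of P450 enzymes were measured beside them as a list of 38 genes of electron donors, receptors, haem supply, steroid partners, epoxide hydrolases and 3 P450 genes whose symbols fall outside the pattern. All 38 had a window peak in each library, and 35, 38 and 34 had a peak at an end. Their median was 3.18, 4.81 and 2.92 peaks per 10 kb. Over all genes, 88.8%, 90.2% and 87.2% had a window peak, 81.0%, 84.8% and 80.6% a peak at an end, and the medians were 2.97, 4.26 and 2.66. The genes with the most peaks per 10 kb were Star, which carries cholesterol into mitochondria (9, 13 and 12 peaks), Tspo, a mitochondrial membrane protein (12, 11 and 12), Pgrmc1, a haem-binding partner of P450 enzymes (11, 9 and 10), and Nr5a1, a regulator of steroid synthesis genes (17, 22 and 14). Por, the electron donor of microsomal P450 enzymes, held 28, 29 and 21 peaks. Cyp51, the P450 of cholesterol synthesis, held 18, 18 and 17.

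Other genes shared some windows. In 15 P450 windows lay a protein-coding gene of another kind, and those windows held medians of 7, 7 and 5 peaks, against 1, 1 and 0 for the 75 windows with no other protein-coding gene. Of the 15, 14 belonged to P450 genes outside the clusters of 3 or more, so this contrast overlaps that of the clusters. The other 8 windows take in part of another P450 gene and no gene of another kind. Outside clusters and with no such gene in the window were 18 P450 genes. Of these, 17, 18 and 16 had a window peak and 13, 16 and 12 a peak at an end. Their windows held medians of 4.5, 7 and 4 peaks, or 2.02, 4.12 and 1.70 per 10 kb. Over all genes, 88.8%, 90.2% and 87.2% had a window peak and 81.0%, 84.8% and 80.6% a peak at an end. The all-gene medians were 8, 11 and 7 peaks, or 2.97, 4.26 and 2.66 per 10 kb.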

How the data were processed

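The authors deposited 1 list of peaks per library, with chromosome, start and end and no score or count of reads. The tools ArchR and MACS2 and the build mm10 are named per the submitters' processing notes. Versions, the aligner, the calling threshold and the treatment of reads that map to several places are not stated there or in the labels. A low threshold or lost repeat reads would change the number of peaks. Starts in the lists were taken as 0-based and are printed 1-based.

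Gene spans and promoter windows came from RefSeq tables of GRCm38.p6, the same build as mm10. A peak counted with at least 1 bp of overlap. Promoter windows were matched by gene identifier for 76 of the 98 genes, and 22 had no entry. Promoter identity came from global alignment of the 300 bases (Biopython 1.88), and a second measure left the ends free and used a shared stretch of at least 150 bases. Clusters joined P450 genes less than 200 kb apart. Peaks of the 3 libraries that overlapped were merged into regions. Ratios between libraries compared shares of all peaks, with exact conditional binomial 95% intervals that cover counting error only, and log2 ratios used a pseudocount of 0.5 peaks scaled to each library's total. The counting was tested on simulated peak lists. Each version is 1 library, so no p-value was computed.

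Named were all genes of families under 5 members, in larger families the 3 genes with most peaks and those with no peak, the 2 highest and 2 lowest log2 share ratios, with the pseudocount, per pair of libraries, and the 4 genes of the partner list with most peaks per 10 kb. Genes used to describe clusters or shared windows were named after their values were seen. The members and lists were chosen with earlier results of these data known. Scripts used Python 3.11.15, numpy 2.4.6, pandas 2.3.3, scipy 1.17.1 and matplotlib 3.10.9. Alternatives were other flanks, overlap rules, end distances, peak widths, an equal number of peaks per library, merged loci and another pseudocount.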

Additional observations from a re-analysis of the deposited data

How the results depend on the processing

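No paired analysis was possible because each version is a single library with no replicate. Peak lists hold no depth, so a gene without a peak cannot be told from one too shallowly covered, and the close copies in clusters share whatever mapping rule the authors used. Of 184 values recomputed for summary counts, medians and share ratios of single genes, 164 stayed and 20 moved. Staying meant within 1.5 times the reported count, or within the interval of the reported median or ratio. The intervals of single-gene ratios are wide, so such a ratio could change much without counting as moved. Of 315 recomputed peak counts of single named genes, summed over the libraries, 223 stayed within 1.5 times and 92 moved. With only peaks wider than 500 bp, P450 genes with a window peak fell to 42 in v1, where 81.7% of all genes had one. The P450 medians in v1 and v3 fell to 0 peaks and 0 per 10 kb. Over all genes those medians were 4 and 4 peaks, at 1.33 and 1.63 per 10 kb. With no flank the v3 median was 0.069 per 10 kb, against 3.07 over all genes. With flanks of 20 kb the median P450 window held 4, 6 and 4 peaks (v1, v2, v3). Over all genes it held 17, 24 and 15. At these flanks 18 of the 27 genes without a peak remained without. With peaks wider than 500 bp, an equal number of peaks, no flank or the midpoint rule, all 27 remained without. Requiring the peak midpoint inside the promoter left 9, 16 and 15 genes (v1, v2, v3) with a promoter peak, and within 500 bp of an end 27 genes in v3. With lists drawn down to equal length, v2 had 19 genes with a promoter peak. Shares over all genes were not computed under these promoter and end settings. The lower counts therefore say nothing particular about P450 genes. An equal pseudocount moved the median log2 share ratio of v2 over v1 to -0.45, of v3 over v1 to 0.28 and of v3 over v2 to 0.38. A gene with no peak then takes the ratio of the list sizes. The medians of v2 over v1 and v3 over v1 equal that ratio, and the median of v3 over v2 does not. Of the 13 genes with a promoter at least 90% identical to another, 3 had a peak in any library, 6 with flanks of 20 kb and 1 with wide peaks, and 5 of 17 when identity was counted over the shared stretch, settings chosen for this result after seeing the data. The cause of the other moves was not tested.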

Other observations

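The gene table also holds 35 entries with P450 symbols that are not protein-coding, mostly pseudogenes, which the set left out. Of these, 16, 17 and 12 had a peak in the window in v1, v2 and v3, and 16 had none in any library. The same share over all pseudogenes was not computed, so these counts say nothing particular about P450 entries. Cyp2d67-ps held 5 peaks in each library, at 4.61 per 10 kb, and lies outside the Cyp2d cluster. Cyp2c52-ps, beside the Cyp2c cluster, held 4, 7 and 5. Cyp21a2-ps, the partner copy of Cyp21a1, held 0, 6 and 1 peaks, where Cyp21a1 held 1, 5 and 0. Inside the Cyp2j cluster Cyp2j14-ps held 1, 6 and 1 and Cyp2j15-ps 2, 5 and 1.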
